A study of Mus musculus with 26 samples.

Results

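The 2 saline control retinas of the UNC0642 experiment (group 2) were compared with the 7 saline control retinas of the Romidepsin experiment (group 1, 3 retinas) and the DZNep experiment (group 3, 4 retinas). These 9 libraries are the saline controls of 1 library series, out of 26 libraries in all, of which 22 are whole retinas. The mice were of the rd10 line (B6.CXB1-Pde6brd10/Jrd10), which carries a missense mutation of Pde6b, the beta subunit of the rod cGMP phosphodiesterase, so that controls and treated mice share the same retinal degeneration. In the labels of groups 3 and 4 the number that ends the genotype rises by 1 from library to library, and all were read as this line. Per the labels saline was injected intraperitoneally each day from postnatal day (PN) 9 to PN24, the age at which the retinas were collected. UNC0642 inhibits the H3K9 methyltransferases EHMT2 and EHMT1, Romidepsin inhibits histone deacetylases, and DZNep reduces the activity of the H3K27 methyltransferase EZH2. None of these compounds was given to the controls, whose diluent was saline in all 3 experiments. DZNep itself was given less often in the later days, and whether its saline controls followed that schedule is not stated. Group 4, the experiment with UNC1999, has 3 controls in another library series, and these are given as levels, with 1 alternative fit that adds them to the reference. UNC1999 itself was dissolved in a mixture of saline with DMSO and other carriers. The paper names the injection of its controls both as saline and as diluent, so their vehicle may differ from that of groups 1 to 3.

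The pair was selected on the rod, gliosis and inflammation transcripts of these same libraries, which had been seen to stand apart, so its differences from the other controls are given as a description, with no p-value. Where a gene of this comparison is said to be called, the threshold of the fit serves only to sort genes by size and spread, and is no evidence that the pair differs. The pair is 1 experiment set against 2 others. Litter, cage and day of dissection are not stated for any library, so that what separates the pair from the other controls cannot be told apart from the experiment. Both sexes were used in the study and the labels give none. Y-linked transcripts had 0 counts in both retinas of the pair and in 4 of the 7 other controls, and their part in the results was not tested.

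In rd10 mice, loss of phosphodiesterase activity raises cGMP in rods, which die first, and cones, which depend on rods, degenerate later. Müller glia, the radial glia of the retina, answer photoreceptor injury with gliosis, in which intermediate filaments, acute-phase proteins and cytokines of the interleukin-6 family are induced while enzymes of normal glial metabolism can be lost. Microglia migrate towards dying rods, engulf them and release chemokines and cytokines. In RNA from a whole retina, fewer cells of a type and less RNA per cell cannot be told apart.

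The 9 libraries held 14860171 to 25234965 counted reads. Of all counts, 3.17% to 3.19% in the pair and 3.50% to 5.11% in the other controls fell on the 10 top genes, and mitochondrial transcripts took 1.69% to 2.13% in all 9. Markers of rods, cones, bipolar cells, amacrine cells, ganglion cells and Müller glia were present in every library, whereas the lens transcript Crybb1 and the T-cell transcript Cd3e were at most 2.10 and 0.306 CPM. Values per library are CPM (reads of a gene relative to all counted reads of the library, scaled by TMM factors), and differences are log2 values of the pair less the 7 other controls with the standard error (SE) of the fit. A gene is said to be called at an adjusted p under 0.05 together with an absolute log2 difference above 1. By that rule 437 genes were called higher in the pair (2.58% of 16915 tested) and 108 were called lower (0.638%). Both libraries of the pair lay above all 7 other controls for 13.2% of the genes and below all 7 for 14.2%, and the median log2 difference over all genes was 0.01. These counts follow from how the pair was chosen, and nothing is read from them.

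Rod transcripts were lower in the pair throughout the phototransduction cascade. Of 35 genes in the lists of rod activation, rod recovery and rod outer segment, 32 were lower in both retinas of the pair than in any of the 7 other controls, and 17 were called lower, with a median log2 difference of -0.98. The exceptions were Mak, Impg2 and Ptp4a3, whose groups overlapped with log2 differences of 0.07, 0.10 and 0.22. Mak and Impg2 were named after their values were seen. The list was scored per library as the mean log2 CPM of its genes, and this level was 8.06 and 8.12 in the pair against 8.64 to 9.42 in the other controls.

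Because the 2 retinas of the pair were alike in rod transcripts, the spread came from the other controls. Gnat1, the alpha subunit of rod transducin (chr9:107576808-107581923, NCBIM37), was at 1449 and 1504 CPM in the pair. In the other controls Gnat1 ranged from 2799 to 6153 CPM with a median of 4421. The pair was 2.91-fold lower (log2 -1.54 ± 0.26, SE).

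The catalytic subunits of the phosphodiesterase followed at a smaller difference. Pde6b, the gene mutated in these mice, was at 304 and 295 CPM in the pair against 459 to 931 CPM, with a median of 684 (log2 -1.15 ± 0.22). Pde6a was at 538 and 594 CPM against 800 to 1563 CPM with a median of 1105 (log2 -0.96 ± 0.21), just outside the fold threshold. The inhibitory subunit Pde6g was called (log2 -1.36 ± 0.23), as were the transducin subunits Gngt1 and Gnb1 and the cGMP-gated channel subunit Cnga1. In this list of 9 genes, 7 were called and all 9 groups stood apart, with a median of -1.18.

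The recovery list, which holds the genes that switch off the photoresponse and restore cGMP, gave 7 called genes of 12 with all 12 groups apart, and a median of -1.12. Slc24a1, the sodium, calcium and potassium exchanger of the rod outer segment, had the largest difference of the list (192 and 202 CPM against 414 to 753, median 556; log2 -1.46 ± 0.21). Sag, the rod arrestin, was at 1060 and 1086 CPM against 1882 to 2973 CPM with a median of 2340 (log2 -1.16 ± 0.16). The guanylate cyclase Gucy2f was at 25.2 and 34.6 CPM against 53.1 to 98.0 CPM (log2 -1.19 ± 0.23). Phosducin (Pdc), recoverin (Rcvrn), Guca1b and Rgs9bp were the other called genes, from -1.38 to -1.08.

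Structural genes of the outer segment were lower by less, with a median of -0.82 over 14 genes, of which 11 were apart and 3 were called. Prph2, the peripherin that shapes the disc rim, was at 810 and 813 CPM against 1310 to 2501 CPM with a median of 1923 (log2 -1.18 ± 0.22). Its partner Rom1 was at 462 and 457 CPM against 656 to 1104 CPM (log2 -0.92 ± 0.19). The phosphatase gene Ptp4a3 ran the other way without leaving the range of the other controls, at 425 and 385 CPM against 298 to 433 CPM. Fscn2 and Rp1l1, with Prph2, were the called members.

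**Figure D1:**
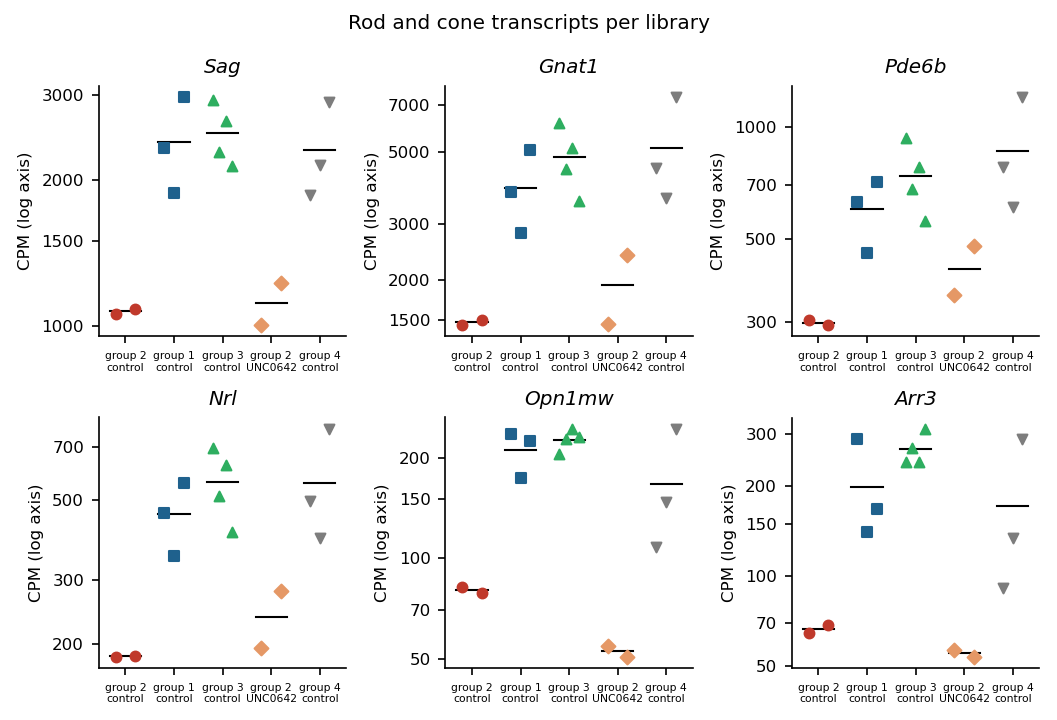
CPM (log axis) of 4 rod genes and 2 cone genes in each library, with 1 point per retina and a bar at the mean of the group. Both group 2 controls lie below the 7 controls of groups 1 and 3 in all 6 panels, and for Gnat1 the 2 points of the pair nearly coincide at 1449 and 1504 CPM.

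Among the transcription factors of photoreceptors, 8 of 9 measured genes were lower in the pair with groups apart, and 3 were called. Nrl, the leucine-zipper factor that fixes rod fate, was at 185 and 186 CPM against 350 to 693 CPM with a median of 513 (log2 -1.44 ± 0.23). Esrrb and Nr2e3, which act with Nrl in rods, were called at -1.31 and -1.01. Neurod1 was the exception, at 256 and 244 CPM against 200 to 258 CPM (log2 0.22 ± 0.09). Of 6 genes of the photoreceptor synapse, 5 were apart and lower, and the list median was -0.71.

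Promoters of 3 rod genes are shown because they hold a short sequence, TAATCC, the core recognized by the photoreceptor factor CRX and by OTX proteins. It was searched on both strands in the 250 bases before each RefSeq start site (GRCm38.p6, a later build than that of the counts) and was found in 6.25% of 32851 promoters. Of the 35 rod genes, 25 had a promoter in the RefSeq table, with 27 promoters between them. The core was in 11 of these promoters (40.74%), from 11 genes, so that most did not hold it. Whether this share differs from that of all promoters was not tested. The rod promoters printed were picked from those with the core. Sag, Cnga1 and Gucy2f, which were called lower in the pair, and Socs3, a gliosis gene called higher, are printed 5′ to 3′ on the strand of the gene. Capitals mark the core, or its reverse complement GGATTA, and in Socs3 the palindromic core TTCNNNGAA of STAT factors. The latter core was in 7.02% of all promoters and in 1 of the 19 promoters (5.26%) of the 18 gliosis genes that had any. The windows are chr1:87803430-87803679 (plus strand, Sag), chr5:72642753-72643002 (minus, Cnga1), chrX:142196937-142197186 (minus, Gucy2f) and chr11:117969367-117969616 (minus, Socs3).
Sag: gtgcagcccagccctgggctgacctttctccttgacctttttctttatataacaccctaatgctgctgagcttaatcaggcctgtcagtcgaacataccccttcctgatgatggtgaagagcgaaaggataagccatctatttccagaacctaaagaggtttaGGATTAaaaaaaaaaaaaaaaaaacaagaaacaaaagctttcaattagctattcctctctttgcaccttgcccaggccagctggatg
Cnga1: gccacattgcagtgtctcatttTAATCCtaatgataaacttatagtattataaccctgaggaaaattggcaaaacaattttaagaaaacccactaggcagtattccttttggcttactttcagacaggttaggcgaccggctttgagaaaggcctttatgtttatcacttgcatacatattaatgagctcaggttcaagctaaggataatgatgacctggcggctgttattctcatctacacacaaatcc
Gucy2f: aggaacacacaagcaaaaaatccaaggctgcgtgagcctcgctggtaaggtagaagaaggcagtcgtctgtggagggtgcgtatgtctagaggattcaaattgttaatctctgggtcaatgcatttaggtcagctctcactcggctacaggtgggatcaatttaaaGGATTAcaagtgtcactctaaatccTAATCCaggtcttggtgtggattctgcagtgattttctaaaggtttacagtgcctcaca
Socs3: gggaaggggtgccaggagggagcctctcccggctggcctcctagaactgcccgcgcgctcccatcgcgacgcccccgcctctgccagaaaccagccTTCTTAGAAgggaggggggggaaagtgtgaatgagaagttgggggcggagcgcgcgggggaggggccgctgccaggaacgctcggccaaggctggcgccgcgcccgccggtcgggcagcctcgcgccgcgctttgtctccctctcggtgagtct
The match lies 87 bases before the start in Sag, 228 in Cnga1, 84 and 59 in Gucy2f and 154 in Socs3. A match describes these letters, and binding was not measured.

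Cone transcripts were also lower in the pair, with 10 of 11 genes lower, 8 of them apart, and the cone opsins and cone arrestin lowest. Opn1mw, the middle-wavelength opsin, was at 82.0 and 78.5 CPM against 173 to 244 CPM with a median of 227, which is 2.67-fold lower (log2 -1.42 ± 0.12). Arr3, the cone arrestin, was at 64.6 and 68.7 CPM against 141 to 311 CPM with a median of 242 (log2 -1.80 ± 0.28). Opn1sw, the short-wavelength opsin, was at 133 and 144 CPM against 146 to 872 CPM with a median of 701 (log2 -2.09 ± 0.53). For Opn1sw the nearest other control was replicate 2 of group 1, at 146 CPM, and the next lowest was at 496 CPM. These 3 were the called members of 11, with a list median of -0.66. Gnb3, the transducin beta subunit of cones that ON bipolar cells also use, was higher in the pair, at 1093 and 919 CPM against 626 to 819 CPM (log2 0.51 ± 0.10).

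Among the lists, gliosis held the most genes called higher in the pair. All 20 genes of the gliosis list were higher, 18 with groups apart and 15 called, and the median log2 difference was 1.56. Il6st and Fgf2 were the overlapping genes. Fgf2 was named after its values were seen. The mean log2 CPM of the list was 7.38 and 7.10 in the pair against 5.14 to 6.18 in the other controls.

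Cytokines of the interleukin-6 family and their feedback inhibitor stood well clear of the other controls. Lif (chr11:4157560-4172517, NCBIM37), the leukaemia inhibitory factor that Müller glia release on photoreceptor injury, was at 38.3 and 16.3 CPM in the pair. In the other controls Lif ranged from 2.62 to 5.22 CPM with a median of 3.28 (log2 2.98 ± 0.27). Clcf1, a second cytokine of this family that signals through gp130, was at 18.6 and 12.5 CPM against 4.31 to 5.07 CPM with a median of 4.61 (log2 1.77 ± 0.14). Socs3, which is induced by STAT3 and inhibits signalling through gp130, was at 122 and 93.1 CPM against 13.6 to 33.1 CPM with a median of 15.4 (log2 2.61 ± 0.26). By contrast the receptor subunit gp130 itself, Il6st, was at 217 and 239 CPM against 165 to 225 CPM (log2 0.33 ± 0.10).

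Acute-phase and filament genes were higher too, with a wider spread between the retinas of the pair. Lcn2, the secreted iron-binding lipocalin, was at 1350 and 430 CPM against 9.62 to 166 CPM with a median of 19.0 (log2 3.97 ± 0.94). Timp1, an inhibitor of metalloproteinases, was at 83.5 and 38.1 CPM against 2.66 to 14.1 CPM with a median of 4.08 (log2 3.37 ± 0.50). Gfap, the glial filament protein, was highest in replicate 2 of the pair, at 527 and 929 CPM against 165 to 483 CPM with a median of 186 (log2 1.54 ± 0.37). Edn2, the endothelin that photoreceptors release under stress, was at 93.2 and 66.2 CPM against 26.6 to 56.0 CPM with a median of 36.8 (log2 1.11 ± 0.26). Bcl3, S100a6, Serpina3n, A2m, Cp, Cd44, Cebpd, Vim and Nes made up the called genes, from 2.49 down to 1.03.

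Genes of mature Müller glia did not move as a group. Of 10 measured, 4 were apart and higher, 4 were apart and lower, and the median was 0.17. Glul, the glutamine synthetase that recycles transmitter glutamate, was at 920 and 1429 CPM against 2566 to 3915 CPM with a median of 3762 (log2 -1.54 ± 0.19), and was the called gene of the list. Rlbp1, which encodes the retinaldehyde-binding protein CRALBP, was at 502 and 536 CPM against 579 to 710 CPM (log2 -0.31 ± 0.08). Hes1, a target of Notch signalling, was at 28.0 and 32.7 CPM against 17.3 to 24.8 CPM (log2 0.63 ± 0.12). The levels of the Glul pseudogene Glns-ps1 (18.5 and 27.2 CPM against 50.7 to 77.4 CPM) are uncertain, since near-identical copies can share reads.

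**Figure D2:**
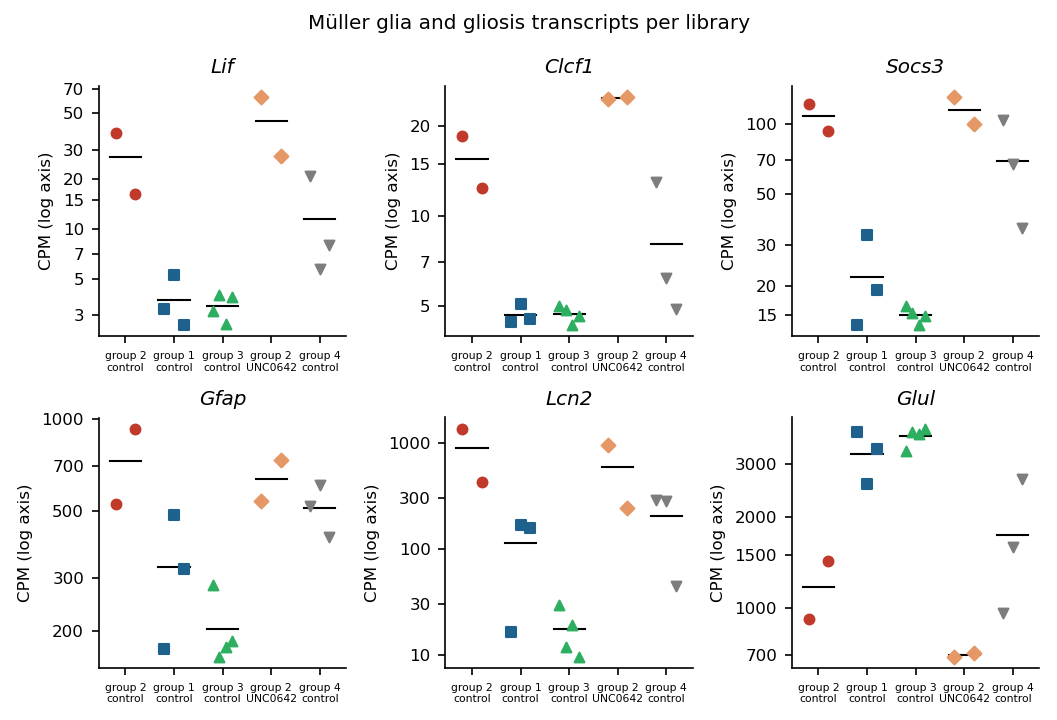
CPM (log axis) of 6 glial genes in each library, with 1 point per retina and a bar at the mean of the group. Lif, Clcf1, Socs3, Gfap and Lcn2 are higher in both group 2 controls than in the 7 controls of groups 1 and 3, and Glul is lower, while the group 4 controls of the other library series lie between or among them.

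Chemokines and cytokines gave the highest median of the lists, 2.37 over 16 genes, all of them higher in the pair, 10 with groups apart and 11 called. Ccl2, which draws monocytes, was at 23.3 and 6.38 CPM against 0.0467 to 4.18 CPM with a median of 0.469 (log2 3.97 ± 0.83). Tnf was at 1.95 and 0.754 CPM against 0 to 0.470 CPM (log2 3.21 ± 0.70). Il1b was at 2.49 and 0.653 CPM against 0 to 0.313 CPM (log2 3.64 ± 0.66). Levels this low rest on few reads, 3 counts being 0.119 to 0.202 CPM in the other controls. In each of these genes replicate 1 of the pair was higher than replicate 2. Ccl7, Ccl4, Cxcl9, Ccl12, Ccl3, Il1a and Tgfb1 were also called.

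Of 18 genes of phagocytic microglia, 17 were higher, 12 with groups apart and 7 called, with a median of 1.10. Lgals3, the galectin of phagocytes, was at 79.7 and 57.0 CPM against 3.26 to 30.1 CPM with a median of 5.16 (log2 2.73 ± 0.64). Gpnmb, a membrane protein of lysosome-rich phagocytes, was at 266 and 226 CPM against 22.7 to 126 CPM with a median of 39.2 (log2 2.10 ± 0.53). Spp1, or osteopontin, was at 169 and 199 CPM against 24.7 to 77.0 CPM (log2 2.27 ± 0.33). Apoe, the apolipoprotein that glia secrete, was the exception, at 2017 and 2034 CPM against 2310 to 3358 CPM (log2 -0.40 ± 0.14).

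General microglial markers separated the pair less clearly. Of 23 genes, 21 were higher, but only 6 had groups apart and 2 were called, with a median of 0.79. Ptprc, the leukocyte antigen CD45, was at 21.5 and 11.3 CPM against 3.26 to 10.7 CPM with a median of 6.49 (log2 1.38 ± 0.39), and Lyz2, the phagocyte lysozyme, was at 119 and 79.3 CPM against 18.3 to 59.2 CPM (log2 1.36 ± 0.39). Cx3cr1, the fractalkine receptor that defines retinal microglia, overlapped, at 43.4 and 41.0 CPM against 15.8 to 47.2 CPM with a median of 29.1 (log2 0.56 ± 0.34). Aif1, which encodes IBA1, also overlapped (12.3 and 7.09 CPM against 2.06 to 10.0; log2 0.96 ± 0.47). The markers of resting microglia Siglech and P2ry12 had log2 differences of -0.99 ± 0.37 and -0.40 ± 0.22, with groups that overlapped. P2ry12 was named after its values were seen.

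Complement gave 3 called genes of 12 tested, with 4 apart and a median of 0.78. C3, the central component, was at 374 and 138 CPM against 13.3 to 109 CPM with a median of 36.7 (log2 2.38 ± 0.60), and the anaphylatoxin receptors C5ar1 and C3ar1 were called at 2.75 and 1.86. C1qb and C4b overlapped (log2 0.92 ± 0.41 and 0.32 ± 0.40). All 17 tested genes of MHC and antigen presentation were higher, but 16 of them overlapped and 2 were called, Psmb10 and Tap2, with a list median of 1.05. Cd74, the MHC class II invariant chain, was at 54.1 and 30.5 CPM against 6.17 to 40.3 CPM (log2 1.10 ± 0.54).

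The interferon response had a median of 1.04 over 23 genes, but no group stood apart, and the median was 0.48 without replicate 1 of the pair and 1.44 without its replicate 2. Irf1 was the called gene (57.9 and 31.6 CPM against 12.6 to 33.8; log2 1.28 ± 0.32). Mx1, an interferon-induced antiviral GTPase, was at 15.4 and 6.93 CPM against 0.271 to 9.51 CPM with a median of 1.68 (log2 2.08 ± 0.85). The mean log2 CPM of the list was 6.20 and 5.23 in the pair. In the other controls it ran from 2.93 to 5.91, with the 2 highest in group 1, so that replicate 2 of the pair lay inside the range of untreated retinas from other experiments.

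**Figure D3:**
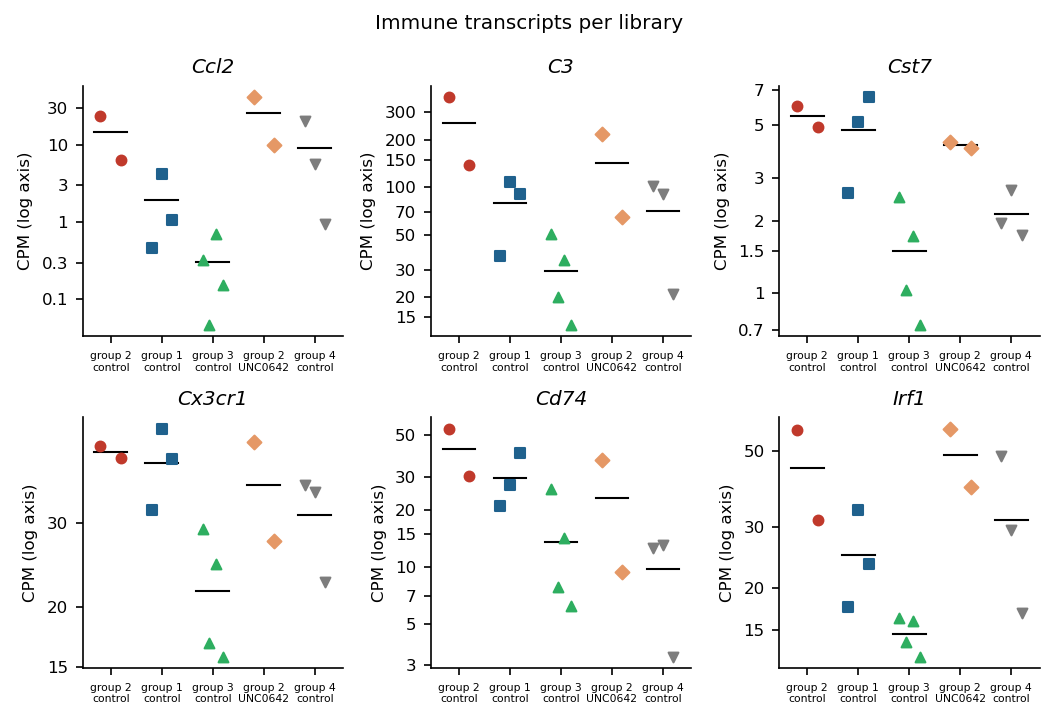
CPM (log axis) of 6 immune genes in each library, with 1 point per retina and a bar at the mean of the group. Ccl2 and C3 are higher in both group 2 controls than in every control of groups 1 and 3, whereas Cst7, Cx3cr1, Cd74 and Irf1 overlap with group 1.

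Transcripts of other neurons had smaller medians. The median was -0.32 over 13 bipolar genes, -0.17 over 13 genes of amacrine and horizontal cells and -0.15 over 11 ganglion cell genes, with 0 genes called in each. Of the bipolar genes 12 of 13 were lower and 8 were apart and lower, as were 4 of the amacrine and horizontal genes and 1 of the ganglion cell genes. Over all genes tested 14.2% were apart and lower, a share that the ganglion cell genes did not reach. Vsx1, a homeobox gene of cone bipolar cells, was at 36.8 and 33.6 CPM against 47.3 to 63.3 CPM (log2 -0.65 ± 0.09). Rbpms, which marks ganglion cells, was at 37.9 and 40.4 CPM against 47.0 to 60.8 CPM (log2 -0.48 ± 0.09). Medians were 0.12 for vascular genes and -0.04 for the retinal pigment epithelium, with 0 called in each. All 6 blood genes were higher (median 1.06), with 2 of them, Alas2 and Hba-a2, called and apart. Their part in the other results was not tested. Hbb-b1 overlapped, at 96.3 and 56.4 CPM against 21.0 to 58.6 CPM.

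Among 15 genes of cell death, 4 were called higher: the inflammasome genes Nlrp3, Casp1 and Casp4 and the necroptosis kinase Ripk3, from 1.14 to 1.97. Ripk3 and Casp4 were at or below 2.45 CPM in all 9 libraries. The groups of Casp4, which had the largest difference of the list, overlapped (2.45 and 0.754 CPM against 0.233 to 1.04). Immediate-early genes split, with 6 of 23 called higher and a list median of 0.19. Myc was at 11.2 and 6.13 CPM against 0.803 to 2.25 CPM (log2 2.42 ± 0.27), and Fosl1, a FOS-family partner of JUN proteins, was at 4.29 and 4.47 CPM against 0.609 to 1.36 CPM (log2 2.26 ± 0.24). Fos and Egr1 overlapped (log2 0.31 ± 0.17 and -0.18 ± 0.23).

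By the naming rule, which orders the genes called and apart by their fit and supports nothing in this comparison, the 5 genes given on the higher side were Slc14a1, Fam179a, Hmga2, Prss23 and Clcf1. Slc14a1, a urea transporter, was at 78.4 and 75.6 CPM against 26.7 to 33.3 CPM (log2 1.42 ± 0.08). Hmga2, an architectural chromatin protein, was at 6.51 and 5.08 CPM against 0.821 to 1.27 CPM (log2 2.46 ± 0.18). Prss23, a serine protease, was at 51.3 and 47.7 CPM against 22.1 to 27.3 CPM (log2 1.09 ± 0.08). Fam179a was at 28.8 and 23.7 CPM against 2.01 to 4.91 CPM (log2 3.06 ± 0.21). On the lower side the 5 were Opn1mw, Glns-ps1, Glb1l2, Glul and Ppargc1b, a coactivator of mitochondrial genes (18.1 and 19.7 CPM against 34.4 to 48.1; log2 -1.10 ± 0.14). Among the lists, the called members nearest the fold threshold were Tap2 and Nr2e3 (1.00 and -1.01), and Guca1a and Pde6a were just outside it (-0.98 and -0.96). Guca1a was named after its values were seen.

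Whether controls of other experiments also differ was tested between the 3 controls of group 1 and the 4 of group 3, a comparison that the choice of the pair did not use. Few genes passed. By the edgeR quasi-likelihood test 40 genes were called higher in group 1 (0.245% of 16327 tested) and 4 lower (0.0245%). These counts rested on single libraries: 299 and 20 were called without replicate 1 of group 1, 150 were called higher without replicate 1 of group 3, and 4 or fewer in either direction without any one of the other 5. Groups were apart with group 1 higher for 6.73% of the genes and lower for 6.47%. Across all 28 lists 1 gene was called, Slc7a11, the cystine transporter of the stress response.

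No rod gene passed the test between group 1 and group 3. All 35 rod genes were lower in group 1, with a median of -0.28, 3 of them apart. Gnat1 was at 3759, 2799 and 5066 CPM in group 1 and at 6153, 4421, 5145 and 3537 CPM in group 3 (log2 -0.32 ± 0.21, adjusted p = 0.519). The gliosis list had a median of 0.34 in this comparison, and Socs3 a log2 difference of 0.55 ± 0.25 (adjusted p = 0.315).

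Group 1 was above group 3 by a median of 0.89 over the 23 microglial genes, 0.95 over the 17 MHC genes and 1.18 over the 23 interferon genes. In each list 0 genes were called, and 20, 16 and 9 genes had an unadjusted p under 0.05, which 16.2% of all genes tested reached. Groups were apart with group 1 higher for 2, 3 and 1 of the genes, beside 6.73% of all genes. The level of replicate 1 of group 1 lay within the range of group 3 in each list. It was 4.32 in 3.41 to 4.47 for microglia, 3.63 in 2.78 to 3.98 for MHC and 3.41 in 2.93 to 4.64 for interferon. Cx3cr1, whose groups were apart, was at 31.9, 47.2 and 40.8 CPM in group 1 against 29.1, 16.8, 24.6 and 15.8 CPM in group 3 (log2 0.89 ± 0.21, adjusted p = 0.101). Cst7, a cystatin of phagocytic microglia, was at 2.61, 5.17 and 6.52 CPM against 2.52, 1.03, 1.73 and 0.737 CPM (log2 1.69 ± 0.41, adjusted p = 0.101). The corresponding medians of the pair against the 7 were 0.79, 1.05 and 1.04. Without replicate 1 of the pair these were 0.53, 0.62 and 0.48, and without its replicate 2 they were 1.04, 1.33 and 1.44. The 7 include the group 1 retinas, whereas group 1 was set against group 3 alone, so the sizes of these medians are not like measures. List levels in the pair were 5.34 and 4.78 (microglia), 5.13 and 4.43 (MHC) and 6.20 and 5.23 (interferon). In each list both lay above every group 3 control, and replicate 2 of the pair lay within the range of group 1.

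Some genes that separated group 1 from group 3 divided the pair. The 5 with the smallest p on the higher side were Srr, Slc7a11, Zic1, Sned1 and Fbn2. Sned1, an extracellular matrix protein, was at 156, 228 and 165 CPM in group 1 and at 39.4 to 76.6 CPM in group 3 (log2 1.84 ± 0.23, adjusted p = 0.0247), and at 20.3 and 169 CPM in the pair. Fbn2, a microfibril protein, was at 5.36 and 27.0 CPM in the pair, against 14.8 to 28.3 CPM in group 1 and 5.30 to 6.57 CPM in group 3. Zic1, a zinc-finger factor, was at 12.2 and 32.2 CPM in the pair, against 23.9 to 31.7 CPM in group 1 and 10.9 to 16.0 CPM in group 3. In these 3 genes replicate 1 of the pair was in the group 3 range or below it and replicate 2 was in that of group 1 or just above it.

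Srr and Ccl27a placed both retinas of the pair with group 3. Srr, the serine racemase that makes D-serine, was at 65.9, 60.7 and 63.1 CPM in group 1 and at 27.2 CPM or less in group 3 (log2 1.32 ± 0.08, adjusted p = 0.000259), with 24.9 and 29.4 CPM in the pair. Ccl27a, an epithelial chemokine, was at 0.535, 0.627 and 1.08 CPM in group 1 and at 7.72 to 8.87 CPM in group 3 (log2 -3.41 ± 0.21, adjusted p = 0.000259), with 6.67 and 7.34 CPM in the pair.

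Retinas from the same experiment as the pair were available as 2 libraries of UNC0642-treated mice, which the choice of the pair did not use. They were set against the same 7 controls, so that compound and experiment cannot be told apart and the reference is shared with the values of the pair. Y-linked transcripts had 0 counts in both UNC0642 retinas, as in the pair and in 4 of the 7 controls, and their part was not tested. Those 7 controls had been set apart from the pair on rod, gliosis and inflammation transcripts. Adjusted p-values of such genes below therefore rest on a reference chosen with the same transcripts in view. Of 16745 genes tested, 536 were called higher (3.2%) and 205 lower (1.22%). The treated retinas of group 2 had lower rod and higher gliosis transcripts than the 7 controls, whereas 1 gene each of the MHC and interferon lists was called higher.

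Of the 35 rod genes, 29 were lower at an adjusted p under 0.05 and 7 of these were called, where 12.5% of all genes tested were lower at that adjusted p, with a median of -0.85 beside -0.98 for the pair. Gnat1 was at 1463 and 2390 CPM (log2 -1.17 ± 0.28, adjusted p = 0.0115), beside -1.54 ± 0.26 for the pair. Sag was at 1003 and 1227 CPM (log2 -1.12 ± 0.17, adjusted p = 0.00121), beside -1.16 ± 0.16. Of 11 cone genes 5 were called lower. Opn1mw was at 54.7 and 50.8 CPM (log2 -2.04 ± 0.13, adjusted p = 7.14e-06), beside -1.42 ± 0.12 for the pair. The difference between the treated and the control retinas of group 2 was not tested here.

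In the gliosis list 16 of 20 genes were called higher and the median was 1.83, beside 1.56 for the pair. Socs3 was at 130 and 99.7 CPM (log2 2.69 ± 0.26, adjusted p = 9.02e-05), beside 122 and 93.1 CPM in the pair. Lif was at 62.6 and 27.5 CPM (log2 3.70 ± 0.26, adjusted p = 1.89e-05) and Clcf1 at 24.7 and 25.0 CPM (log2 2.43 ± 0.09, adjusted p = 2.23e-07). Glul was at 690 and 708 CPM (log2 -2.30 ± 0.16, adjusted p = 1.36e-05), below both retinas of the pair. Hmga2 was at 20.3 and 20.8 CPM (log2 4.27 ± 0.14, adjusted p = 1.11e-07).

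Immune genes of the treated retinas were less uniform. Chemokines and cytokines had a median of 1.88, with 7 of 15 tested genes called, and Ccl2 was at 41.1 and 9.86 CPM (log2 4.75 ± 0.81, adjusted p = 0.00212). The medians of the microglial, MHC and interferon lists were 0.12, 0.29 and 0.34, beside 0.79, 1.05 and 1.04 for the pair. Of the 23 microglial genes 16 were higher and 7 lower, with 0 called higher. Siglech and P2ry12 were called lower (log2 -1.88 ± 0.38, adjusted p = 0.00482, and -1.70 ± 0.30, adjusted p = 0.00259). Of the 18 genes of phagocytic microglia 16 were higher and 5 were called higher, with a median of 0.90 beside 1.10 for the pair. Apoe was called lower. Irf1 was at 58.2 and 39.4 CPM and was called higher (log2 1.39 ± 0.30, adjusted p = 0.00705).

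**Figure D4:**
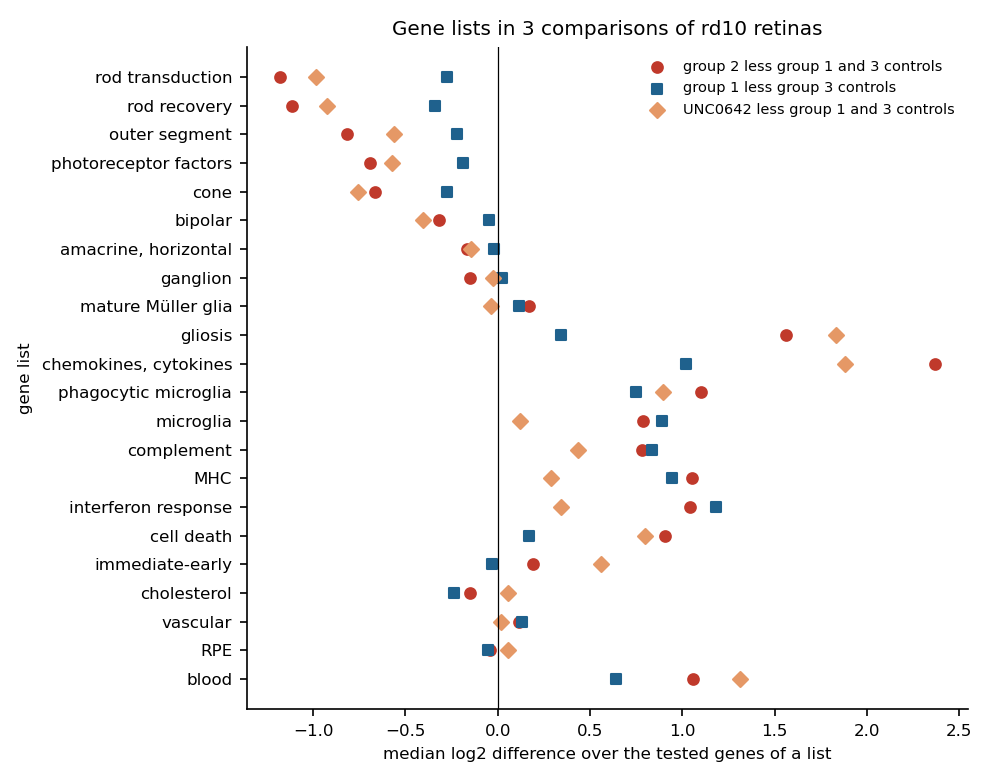
Median log2 difference over the tested genes of 22 gene lists (rows) in 3 comparisons: the group 2 controls less the 7 controls of groups 1 and 3 (circles), group 1 less group 3 controls (squares) and the UNC0642 retinas less the same 7 controls (diamonds). Circles and diamonds lie together in the rod and gliosis lists, while in the microglia, MHC and interferon lists the circles lie nearer the squares. The squares have group 3 alone as their reference, so their distance from the circles is not a like measure.

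Over the lists, the level of rod transcripts and that of gliosis did not go together in every set of controls. The 3 controls of group 4, from the other library series and possibly with another vehicle, had gliosis levels of 7.20, 6.86 and 6.17. The first lay between the levels of the pair (7.38 and 7.10), the second between the pair and the other controls, and the last within the range of the other controls. Their rod levels were 9.18, 9.03 and 9.69, with Gnat1 at 4473, 3592 and 7405 CPM, in or above the range of groups 1 and 3. Socs3 was at 104, 66.8 and 35.7 CPM and Glul at 960, 1590 and 2675 CPM in these retinas. With the group 4 controls added to the reference, 67 genes were called higher in the pair and 44 lower, and the gliosis median was 1.17. Within groups 1 and 3, replicate 2 of group 1 lay nearest to the pair, with the lowest rod level (8.64), the highest gliosis level (6.18) and the highest interferon level (5.91).

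**Figure D5:**
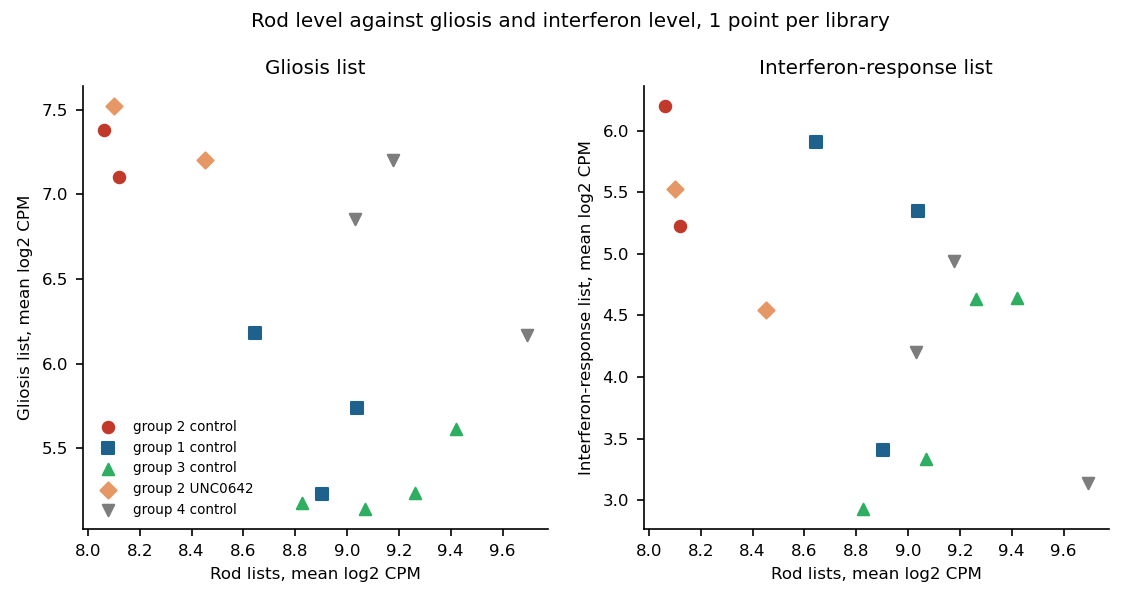
Mean log2 CPM of the 35 rod genes (x axis) against that of the gliosis list (left panel) and the interferon list (right panel), with 1 point per retina. The 2 group 2 controls lie at low rod and high gliosis levels beside the UNC0642 retinas, the group 4 controls combine gliosis levels of 6.17 to 7.20 with rod levels above 9, and the interferon levels of the pair overlap those of group 1.

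How many genes were called depended on single libraries. Without replicate 1 of the pair, 59 genes were called higher and 8 lower; without its replicate 2 the higher count was 285, and without replicate 2 of group 1 it was 721. Against group 1 alone the counts were 50 and 17, and against group 3 alone 948 and 182. The rod median stayed between -1.07 and -0.95 and the gliosis median between 1.43 and 1.74 whichever library was left out.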

How the data were processed

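Polyadenylated RNA of whole retinas was sequenced as stranded libraries. Per the study's methods and the submitters' processing notes, reads were trimmed, aligned to NCBIM37 (mm9) with HISAT2 2.2.1 and counted per Ensembl gene with HTSeq 0.11.2; the strand setting is not given in the sources used here. The deposited values are raw counts of 37991 genes, and symbols and positions of 37205 came from GENCODE M1. No 2 replicates were copies (chi-square of at least 3.89 per gene over 21 pairs).

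Counts were filtered with filterByExpr, scaled by TMM and fitted with the quasi-likelihood test of edgeR 4.0.16 in R 4.3.3 (the authors used its likelihood ratio test), with Benjamini-Hochberg adjustment over all genes tested. The fits were tested on simulated data. The level of a list is its mean log2 CPM (prior count of 2), with TMM factors set over the 22 retinas. Depth is the total of counted reads, and 3 counts were taken as the floor. Of 375 list entries, 369 were found in the table; reads shared by paralogs, such as the MHC, crystallin and opsin genes, are uncertain. P-values measure the spread between retinas that the labels call biological replicates.

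The pair, the gene lists and the named genes were chosen with earlier results of these data known. Named genes are a fixed panel, the 5 genes with the smallest p in each direction and comparison among those called and apart, and in each list the largest and smallest difference and the called members. Retinas treated with the other compounds entered the TMM factors, the check for copies and an alternative fit of all 22 retinas, and their values are not reported. Sorted rods were not used here. Some genes of the lists are counted in them but not reported here by name.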

Additional observations from a re-analysis of the deposited data

Results flagged for a closer look

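In 120 groups of 4 to 10 values, an extreme value was set against Dixon's criterion, which chance passes in about 1 group of 20; 4 were marked, where 6 would be expected. They are given as values. Among the 7 other controls, replicate 2 of group 1 stood below the rest in Opn1sw (log2 CPM 7.19, the next at 8.95) and in Glul (11.3, the next at 11.7). Replicate 3 of group 3 stood below the rest in the level of the pigment epithelium list (1.99, the next at 2.68). Within the 4 controls of group 3, replicate 1 had the lowest level of the ganglion cell list (6.70, the next at 7.02). None of the 4 values belongs to the pair, which with 2 retinas cannot be examined in this way.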

How the results depend on the processing

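The direction of the 5 list medians recomputed and of the called genes named by rule held under all alternatives run; of 154 named genes, 15 changed sign under some alternative, none of them called. Counts moved more. For the pair against the 7 controls (437 higher, 108 lower), leaving out 1 library gave 59 to 721 and 8 to 147, group 1 alone as reference 50 and 17, group 3 alone 948 and 182, group 4 controls added 67 and 44 (gliosis median 1.17), and no fold threshold 1499 and 798. Leaving out 1 library gave list medians of -1.07 to -0.95 (rods), 1.43 to 1.74 (gliosis), 0.53 to 1.04 (microglia), 0.62 to 1.33 (MHC) and 0.48 to 1.44 (interferon). For group 1 against group 3 (40 higher, 4 lower), the likelihood ratio test gave 192 and 22, DESeq2 147 and 11, no filter 107 and 9, no fold threshold 62 and 21, and leaving out 1 library 1 to 299 and 1 to 20, with 299 and 20 without replicate 1 of group 1 and 150 higher without replicate 1 of group 3. Without each of the other 5 libraries 4 or fewer were called in either direction. For the UNC0642 retinas (536 and 205), no fold threshold gave 2707 and 2092, and leaving out 1 library 367 to 683 and 127 to 233, the 127 without UNC0642 replicate 2. The cause of these shifts was not tested.

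Replicate numbers are shared between groups by label only. Correlations between same-numbered retinas in their deviations from the group mean were -0.51 to 0.22, and the numbers were not taken to pair them. In a group of 2 retinas these deviations are equal and opposite. The pair and the UNC0642 retinas therefore gave the same correlation (0.20) for both numbers, which cannot show or exclude pairing. With a replicate block the pair gave 104 and 42 calls, and group 1 against group 3 gave 1 and 0.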

Other observations

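Lists not described above gave these values for the pair against the 7 other controls. Cholesterol synthesis had a median log2 difference of -0.15 over 14 genes, with 0 called, and the list of the enzymes that the study's compounds inhibit had a median of 0.01 over 8 genes, with 0 called. The integrated stress response had a median of 0.33 over 11 genes, and Phgdh, the first enzyme of serine synthesis, was the called gene (log2 1.23). Of 6 tested crystallin and lens genes, Crybb3 was called higher, at 5.86 and 7.39 CPM against 1.61 to 4.23 CPM. Of 13 lymphocyte and neutrophil genes 5 were high enough to be tested, with a median of 0.07 and 0 called. Xist was at 676 and 823 CPM in the pair and at 0.104 to 1097 CPM in the other controls.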
